A study of Mus musculus with 8 samples.

Results

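The genes described here are 10 of the 23143 gene rows of a macrophage count table, taken by their symbols from a list made with earlier results of these data known: the transcription factor gene Nfe2l2 (which encodes Nrf2), its repressor Keap1, and the antioxidant or stress genes Hmox1, Nqo1, Gclc, Gclm, Txnrd1, Srxn1, Sqstm1 and Prdx1. All 10 were found in the table and had reads in all 8 libraries, so no member was lost to a filter. The RNA came from RAW264.7 cells, a mouse macrophage-like line transformed by Abelson leukaemia virus. One culture was left unstimulated (0 min) and the others received 100 ng/ml lipopolysaccharide (LPS) from E. coli serotype O111:B4 for 15 to 60 min in steps of 15 min, or for 75, 90 or 120 min, with the same medium and serum throughout. Ribosomal RNA was removed before sequencing, and the labels give the RNA fraction as cytoplasmic while the molecule is entered as total RNA. Each time point was 1 library of 1 culture of a cell line, so no value has a replicate error, and the intervals given are 95% intervals of counting error only.

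Nrf2 is a leucine zipper activator that pairs with small Maf proteins and binds antioxidant response elements (AREs) in DNA. In resting cells Keap1 bridges Nrf2 to the Cul3 ubiquitin ligase and keeps it short-lived; oxidants and electrophiles modify Keap1 and let Nrf2 accumulate, so that much of this control acts on the protein and is not seen in mRNA counts. In macrophages the pathway is known for limiting oxidative damage after activation and for its links to inflammatory gene expression.

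Library totals ran from 100250892 to 159077286 reads assigned to genes, and 6176 genes had no read in any library. The ribosomal precursor Rn45s took 8.18% to 9.11% of the reads at 0, 30, 60 and 120 min and 13% to 20.5% at 15, 45, 75 and 90 min, and the members' calls, their maxima and minima and their 120 min ratios were therefore also computed with the 0, 30, 60 and 120 min libraries alone. None of 10 macrophage markers was under 1 cpm (counts per 1e6 assigned reads) in any library, with a summed level of 6143 to 7438 cpm, whereas 6 of 12 markers of other cell types had no read and the other 6 were under 1 cpm, with a summed level of 0.043 to 0.178 cpm. Counts were divided by library size factors to give normalized counts. A difference between libraries was called where the log2 ratio exceeded 0.5 in size and an exact negative binomial test of the libraries gave an unadjusted p under 0.05, with a dispersion estimated from all 8 libraries treated as a single group. Such a call compares libraries, not conditions.

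Of the 10 genes, Sqstm1, Srxn1 and Txnrd1 rose after LPS, Keap1 fell, and the other 6 were not called at any time. At 120 min the ratio to the unstimulated library was 5.55 for Sqstm1, 2.89 for Srxn1, 1.82 for Txnrd1 and 0.45 for Keap1. Nfe2l2 itself stayed between 1 and 1.14 times its unstimulated level in all 8 libraries. In bulk RNA a change in a few cells and a smaller one in all cells cannot be told apart.

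**Figure D1:**
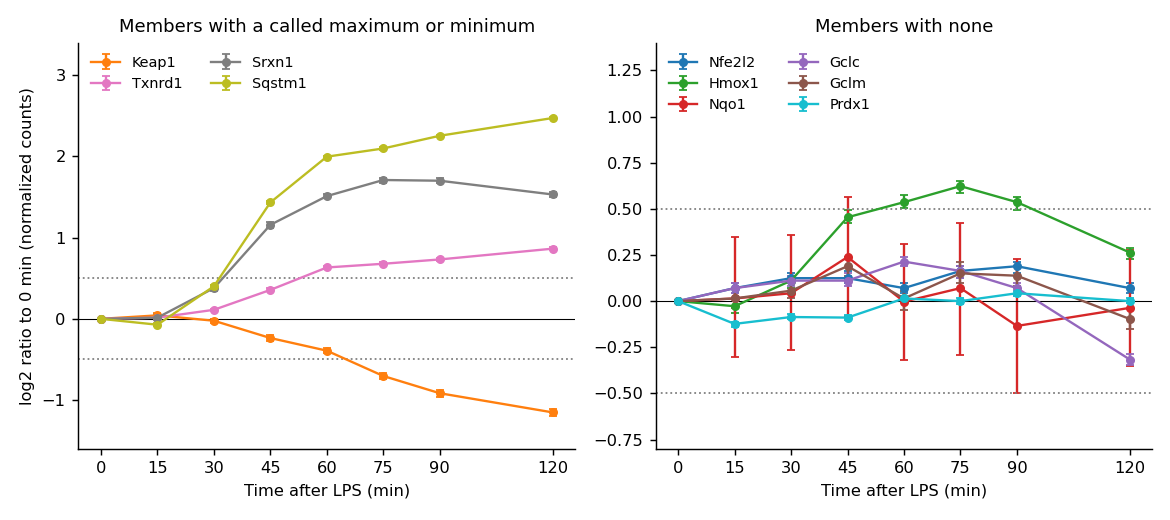
log2 ratio of normalized counts to the 0 min library (vertical axes, with different ranges) against minutes after LPS, with 95% counting intervals as bars and dotted lines at the limit of 0.5, 1 library per point. On the left, Sqstm1 reached 2.47, Srxn1 1.53 after a peak of 1.71, Txnrd1 0.86 and Keap1 -1.15 at 120 min, while on the right Hmox1 peaked at 0.62 and the other 5 genes stayed within the dotted lines.

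The upstream sequences of the 4 called genes are shown because their mRNA differed between libraries by the call. That of Prdx1 was picked as the sequence of a nearly constant gene whose promoter also holds motif matches. Each is the 250 bases before the annotated transcription start in RefSeq (GRCm38.p6), read 5′ to 3′ on the gene's strand, with motif matches in capitals. The motifs searched on both strands were the ARE core TGACNNNGC, bound by Nrf2 with a small Maf, the AP-1 site TGANTCA, bound by Fos and Jun proteins, and the kappaB site, bound by NF-kappaB.
Sqstm1, chr11:50210821-50211070, minus strand: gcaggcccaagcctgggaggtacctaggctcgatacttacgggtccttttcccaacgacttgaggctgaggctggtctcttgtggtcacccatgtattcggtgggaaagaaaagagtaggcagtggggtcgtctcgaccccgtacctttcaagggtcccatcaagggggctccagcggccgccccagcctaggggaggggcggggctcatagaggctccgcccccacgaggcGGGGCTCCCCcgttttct
Srxn1, chr2:152105274-152105523, plus strand: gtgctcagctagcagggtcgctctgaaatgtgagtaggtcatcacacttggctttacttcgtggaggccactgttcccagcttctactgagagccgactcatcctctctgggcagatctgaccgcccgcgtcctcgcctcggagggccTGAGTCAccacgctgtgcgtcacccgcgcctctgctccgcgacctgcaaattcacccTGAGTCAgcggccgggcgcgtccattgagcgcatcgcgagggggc
Txnrd1, chr10:82858956-82859205, plus strand, the only one of its 3 annotated starts with a match: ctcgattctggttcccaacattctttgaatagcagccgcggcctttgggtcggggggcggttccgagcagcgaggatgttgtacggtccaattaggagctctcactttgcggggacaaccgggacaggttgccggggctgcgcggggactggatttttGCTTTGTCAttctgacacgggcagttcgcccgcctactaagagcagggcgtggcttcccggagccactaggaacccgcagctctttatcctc
Keap1, chr9:21239333-21239582, minus strand: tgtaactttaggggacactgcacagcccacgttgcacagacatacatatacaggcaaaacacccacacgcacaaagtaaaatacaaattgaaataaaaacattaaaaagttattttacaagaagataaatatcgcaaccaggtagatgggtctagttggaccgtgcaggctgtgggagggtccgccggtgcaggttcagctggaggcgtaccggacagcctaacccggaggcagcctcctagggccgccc
Prdx1, chr4:116685349-116685598, plus strand: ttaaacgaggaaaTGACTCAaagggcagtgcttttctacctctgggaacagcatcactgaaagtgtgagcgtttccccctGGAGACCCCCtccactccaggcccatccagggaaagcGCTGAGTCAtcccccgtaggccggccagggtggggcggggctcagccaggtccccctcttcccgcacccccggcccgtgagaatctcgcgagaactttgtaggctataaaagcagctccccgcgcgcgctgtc

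Counted from the start site, the Sqstm1 window holds 1 kappaB match at bases -18 to -9. The Srxn1 window holds an AP-1 match at -102 to -96 and another at -45 to -39, and past its start site an ARE core at bases 29 to 37, which is not shown. Txnrd1 holds an ARE core at -92 to -84, and Keap1 holds none of the 3 motifs. In Prdx1 an ARE core at -133 to -125 overlaps an AP-1 match at -131 to -125, with a further AP-1 match at -237 to -231 and a kappaB match at -170 to -161. Of the members without a call, Gclm has an ARE core at -134 to -126 and Nfe2l2 at -240 to -232, Nqo1 has no match, and Gclc and Hmox1 were not examined for motifs. Among all 32851 RefSeq promoters, the same 250 bases hold an ARE core in 10.2%, an AP-1 match in 6.75% and a kappaB match in 3.9%, and with the first 50 bases past the start added the shares are 12.4%, 7.81% and 4.51%. Members with a called change and members without one both include windows with and without a match, and a match is a run of letters, not a measured binding site.

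Nfe2l2, the gene of the factor itself, which lies at chr2:75675513-75704663 on the minus strand (longest matched transcript of 5 exons), had 16619, 17414, 18080, 18165, 17501, 18540, 18878 and 17489 normalized counts in the 8 libraries in order of time, from 0 to 120 min. The highest library stood 1.14 times above the lowest (interval 1.11 to 1.16), and none of the 28 pairs of libraries differed by the call.

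Keap1, the Nrf2 adaptor (chr9:21229730-21239332, minus strand, 6 exons), had 14873, 15250, 14636, 12627, 11330, 9128, 7884 and 6686 normalized counts in the same order. It was level to 30 min and lower in each later library than in the one before. Every step from 30 min on lay between 0.806 and 0.897, and no single step was called, so the fall of 1.15 on the log2 scale at 120 min was spread over the time course. Against 0 min it was called lower at 90 min (ratio 0.53, interval 0.515 to 0.546) and at 120 min (0.45, interval 0.438 to 0.462), and 9 of the 28 library pairs differed. The call at 90 min was lost with Benjamini-Hochberg adjustment and with a log2 limit of 1. At 75 min, with a ratio of 0.614, Keap1 was not called, but it was with total counts, total counts less Rn45s or edgeR's TMM factors as the scale. It was also called at 75 min on size factors under other settings. These were a minimum mean count of 10, DESeq2's dispersion trend, counts corrected for transcript length and the counting interval alone. The same held when the 90 or the 120 min library was left out. Of 10494 genes with a mean of at least 100 normalized counts, 374 (3.56%) had a lower ratio at 120 min than Keap1.

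Because Nfe2l2 was level while Keap1 fell, their proportion changed. Levels of different genes were compared per length, in rpkm, the reads per kilobase of 58-base sequences unique to the gene, scaled to 1e6 assigned reads in the library. The ratio of Nfe2l2 to Keap1 in rpkm was 1.56, 1.59, 1.72, 2.01, 2.15, 2.83, 3.34 and 3.65 over the 8 libraries, higher in each library than in the one before. It is a ratio of transcripts and says nothing of the proteins.

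Sqstm1 encodes p62, a receptor of selective autophagy that binds ubiquitin and also binds Keap1, and the gene (chr11:50200152-50210820, minus strand, 8 exons) is a known Nrf2 target. Its normalized counts were 40483, 38506, 53425, 109277, 161440, 173212, 193148 and 224712. The first 3 libraries were low, and the steepest step was from 30 to 45 min, which was 2.05-fold (interval 2.03 to 2.07) and the only called step of this gene. From 60 min on the level still increased, by 1.07- to 1.16-fold a step, and was highest in the last library. Sqstm1 was called higher at 45, 60, 75, 90 and 120 min, with ratios of 2.7, 3.99, 4.28, 4.77 and 5.55 (interval of the last, 5.5 to 5.61). Of the 10494 genes above, 131 (1.25%) had a higher ratio at 120 min.

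The opposite courses of Sqstm1 and Keap1, whose proteins bind each other, took their rpkm ratio from 4.64 at 0 min through 6.22 at 30 min, 14.7 at 45 min and 24.3 at 60 min to 57.2 at 120 min.

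Srxn1 encodes sulfiredoxin, which restores peroxiredoxins that have been over-oxidized, and it lies at chr2:152105524-152111376 on the plus strand with 2 exons. It had 10705, 10845, 13924, 23882, 30560, 35024, 34778 and 30972 normalized counts. Its course had the same low start and the same called step from 30 to 45 min (1.72-fold, interval 1.68 to 1.75) as Sqstm1, but it did not go on rising. The maximum was at 75 min, 3.27-fold over 0 min (interval 3.2 to 3.34). The later step from 90 to 120 min was 0.891 (interval 0.877 to 0.905), a decline beyond counting error that was not called. Srxn1 was higher than at 0 min by the call in the same 5 libraries as Sqstm1, though its call at 45 min was lost with Benjamini-Hochberg adjustment. Of the 10494 genes, 285 (2.72%) had a higher ratio at 120 min.

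Prdx1, a peroxiredoxin that reduces hydrogen peroxide and belongs to the enzymes repaired by sulfiredoxin, lies at chr4:116685599-116700000 on the plus strand with 6 exons. Its normalized counts were 90377, 82936, 85178, 84991, 91538, 90476, 93253 and 90367, with the highest library 1.12 times above the lowest (interval 1.11 to 1.14). That interval overlaps the one of Nfe2l2 (1.14, interval 1.11 to 1.16), so which of these ranges was narrower is not resolved. On total counts Prdx1 ranged more widely, from 286 rpkm at 75 min to 360 at 0 min. No pair of libraries was called. Of its 58-base sequences, 8.85% also occur in the processed pseudogenes Gm21399 and Gm7204, so a part of its reads could have come from those copies. With Prdx1 level and Srxn1 higher, the rpkm ratio of Srxn1 to Prdx1 went from 0.0962 at 0 min to 0.314 at 75 min and 0.278 at 120 min.

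Txnrd1, the cytosolic thioredoxin reductase that recycles thioredoxin with NADPH, lies at chr10:82833951-82897724 on the plus strand, with 4 RefSeq transcripts of which the longest has 15 exons. It had 47756, 48300, 51464, 61133, 74080, 76571, 79270 and 86832 normalized counts, higher in each library than in the one before. No step was called, and the largest were from 30 to 45 min (1.19-fold) and from 45 to 60 min (1.21-fold). It was called higher than at 0 min at 90 min (1.66-fold, interval 1.64 to 1.68) and at 120 min (1.82-fold, interval 1.8 to 1.84), but at 60 and 75 min, with ratios of 1.55 and 1.6, it was not. Both earlier times were called when only genes with a mean count of at least 10 entered the fit. They were also called when the 120 min library was left out and when the counting interval alone made the call. The call is the weakest of the 4. It was lost with total counts as the scale (log2 ratio 0.66 at 120 min, against 0.86), with total counts less Rn45s (0.67), with Benjamini-Hochberg adjustment, with a log2 limit of 1 and with edgeR's dispersion trend. The overlapping gene Eid3 is a separate row of the table, and reads shared by transcripts of several genes had been discarded.

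Hmox1, heme oxygenase 1, breaks haem down to biliverdin, iron and carbon monoxide and lies at chr8:75093618-75100593 on the plus strand with 5 exons. Its normalized counts were 11475, 11253, 12372, 15757, 16687, 17629, 16586 and 13734. They were highest at 75 min (1.54-fold over 0 min, interval 1.5 to 1.57) and then declined, with a last step of 0.828 (interval 0.809 to 0.847). The log2 ratio exceeded 0.5 at 60, 75 and 90 min without passing the test. Hmox1 was called at 75 min when only genes with a mean count of at least 10 entered the fit, when the 120 min library was left out, and, at 60 and 75 min, when the counting interval alone made the call.

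The enzymes of glutathione synthesis were not called. Gclc, the catalytic subunit of glutamate-cysteine ligase, the rate-limiting enzyme of that synthesis (chr9:77754535-77794489, plus strand, 16 exons), had 18505, 19371, 19965, 20057, 21458, 20692, 19341 and 14857 normalized counts. Its lowest library was the last, 0.803 of the 0 min level (interval 0.787 to 0.819) and 0.768 of the 90 min level (interval 0.752 to 0.785). Gclm, the modifier subunit (chr3:122245487-122267215, plus strand, 7 exons), had 5076, 5136, 5301, 5787, 5103, 5644, 5588 and 4747, a range of 1.22-fold. Both subunits were thus lowest at 120 min, by steps that exceeded counting error but not the call. Their rpkm ratio, Gclc to Gclm, lay between 5.14 at 120 min and 6.9 at 60 min.

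Nqo1, the quinone reductase often used as a marker of Nrf2 activity (chr8:107388225-107403205, minus strand, 6 exons), had only 146, 148, 151, 173, 146, 153, 133 and 143 normalized counts. Its highest and lowest libraries differed 1.3-fold with an interval of 1 to 1.68, and none of the 28 pairs of libraries was called. With so few reads the counting interval is wide, and the smallest change that would have been called was not computed.

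**Figure D2:**
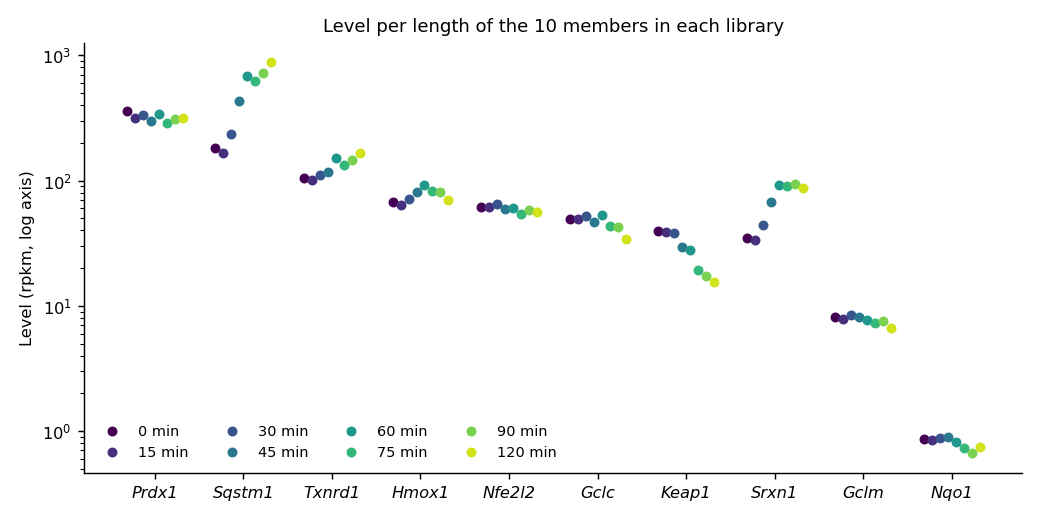
Level per length in rpkm (log axis) of each gene in each of the 8 libraries, genes ordered by the level at 0 min and libraries coloured by minutes after LPS. Prdx1 was highest at 0 min with 360 rpkm and Nqo1 lowest with 0.872, and Sqstm1 moved from 182 rpkm to 880, above Prdx1.

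Per length, the order in unstimulated cells was Prdx1 with 360 rpkm (interval 358 to 363), Sqstm1 182 (181 to 184), Txnrd1 105 (104 to 105), Hmox1 67.7 (66.6 to 68.9) and Nfe2l2 61.3 (60.4 to 62.2). Below them came Gclc with 49 rpkm (48.4 to 49.7), Keap1 39.3 (38.8 to 39.9), Srxn1 34.7 (34.1 to 35.3), Gclm 8.2 (7.99 to 8.41) and Nqo1 0.872 (0.746 to 1.01). No neighbours in this order had overlapping counting intervals, though no replicate error is known. At 120 min Sqstm1 led with 880 rpkm (877 to 884), followed by Prdx1 with 313 and Txnrd1 with 165. Srxn1, with 87.2 rpkm, then stood above Hmox1 (70.5), Nfe2l2 (56.1) and Gclc (34.2), and Keap1 with 15.4 had dropped below all of them while remaining above Gclm (6.67) and Nqo1 (0.74). Rpkm values are scaled to all assigned reads, so they also carry the Rn45s share of each library.

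By time, no member was called at 15 or 30 min, when 0.295% and 1.14% of all genes with a read were called higher and 0.164% and 0.202% lower. At 45, 60 and 75 min the same members, Srxn1 and Sqstm1, were higher (2 of 10 each time) and none lower, beside 3.80%, 3.43% and 4.77% of all genes higher and 1.50%, 2.36% and 3.48% lower. At 90 and 120 min 3 of 10 were higher and 1 lower, beside 5.79% and 7.63% of all genes higher and 4.42% and 6.70% lower. A called maximum or minimum anywhere in the course was found in 4 of 10 members and in 17.0% of genes with a read. Among them Sqstm1, Srxn1 and Txnrd1 had a first maximum at or after 60 min (at 120, 75 and 120 min) and no minimum, and Keap1 had a minimum at 120 min and no maximum. The shares of all genes were not matched to the members by level. Of the 16967 genes with a read, 12166 had a mean of at least 10 normalized counts, while every member had 149 or more. The median log2 ratio of the 10 members was 0.21 at 45 min and 0.04 at 120 min, against 0.01 and -0.02 over all genes.

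**Figure D3:**
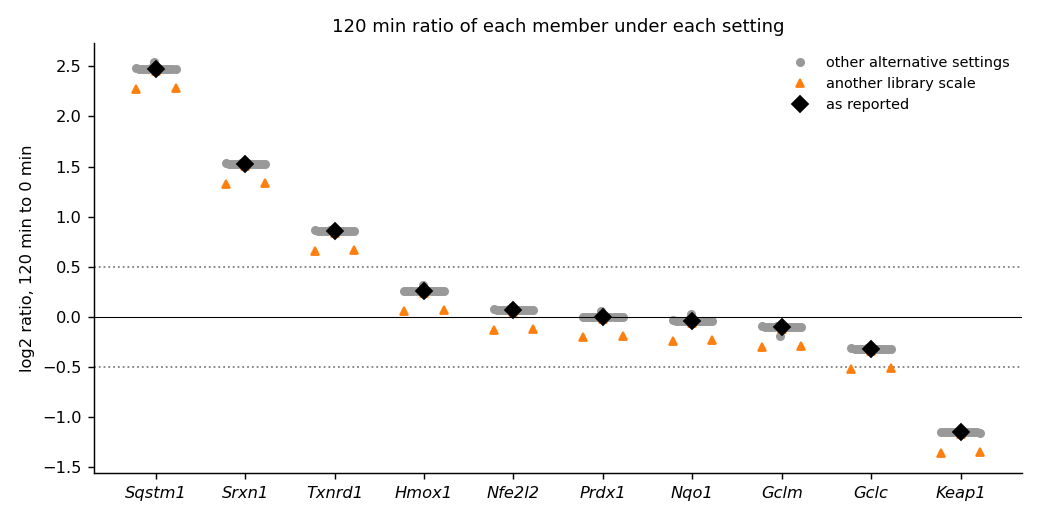
log2 ratio of 120 min to 0 min (vertical axis) of each gene as reported and under the alternative settings, with dotted lines at 0.5 and -0.5. Total-count scales (the low triangles) put every gene about 0.20 lower and turned the sign of Nfe2l2. Over all settings Sqstm1 stayed at 2.27 or more, Srxn1 at 1.33 or more and Keap1 at -1.14 or less, and Nfe2l2 ran from -0.13 to 0.10.

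The library scale moved all members together. With total counts in place of size factors every log2 ratio was lower by 0.33 at 75 min and by 0.20 at 120 min. Sqstm1 then stayed at 2.27, Srxn1 at 1.33 and Keap1 at -1.36 at 120 min, while Nfe2l2, with 0.07 by size factors, fell below 0. Steps and peaks near 75 min changed as well on total counts. In rpkm, from 60 to 75 min, Sqstm1 went from 681 to 620 and Txnrd1 from 152 to 133. Hmox1 was highest at 60 min (92.2 rpkm) and Srxn1 at 90 min (94 rpkm). The same scale changed the split of called genes in the whole table at 120 min from 1196 higher and 1049 lower to 677 higher and 1250 lower, and total counts less Rn45s gave 755 and 1435. With total counts the share of called genes that were higher went from 71.6% to 49.4% at 45 min, from 57.9% to 25.1% at 75 min and from 56.7% to 32% at 90 min, and with total counts less Rn45s it was 65.3% at 45 min, then 42.7% at 75 min and 41.2% at 90 min. With the 0, 30, 60 and 120 min libraries alone, each of the 10 genes kept its call at 120 min.

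Across the 8 libraries the rising members followed each other closely. Pearson's r of log2 normalized counts was 0.99 for Txnrd1 and Sqstm1, 0.98 for Srxn1 and Sqstm1, and 0.96 for Txnrd1 and Srxn1. Hmox1 ran most like Srxn1, with r = 0.92. Keap1 ran against Txnrd1 (r = -0.94), Sqstm1 (-0.91) and Srxn1 (-0.85). These values describe 8 points that share 1 time course and its library depths. The rising genes and Keap1 were grouped by their change in the same 8 libraries, so r near 1 or -1 among them follows in part from that grouping. The values are given without a test.

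The genes of the whole table with the course most like a member, by the same measure among genes with a mean of at least 100 normalized counts, were Nfkbib, Ets2 and Sun2 for Sqstm1 (r = 0.996 for each), and Col11a2 (0.998), Slc20a1 and Bcl2l11 (0.996 each) for Srxn1. For Txnrd1 they were Zswim4 and Pdlim7 (0.999 each) and Cep63 (0.998), and for Keap1 Tfap4 (0.999), Tnfaip8l2 and Ankmy2 (0.998 each). With Spearman's rho only 1 of the 3 named for Srxn1 and none of those named for Sqstm1, Txnrd1 or Keap1 was again among the 3 most like, so the names depend on the measure.

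Around the members, 142 other genes of the pathway were taken in 6 lists, and 118 of them had a mean of at least 10 normalized counts. At 60 min 7 were called higher and 4 lower, beside 3.43% and 2.36% of all genes, and at 120 min 17 (12%) were higher and 9 (6.34%) lower, beside 7.63% and 6.70% of all genes. The share of lower calls at 120 min was thus near that of the table. List shares are over all listed genes, 8 of which had no read in any library. Shares of all genes are over genes with a read in either library compared. Their median log2 ratio at 120 min was -0.08, beside -0.01 over the 12166 genes of the table with a mean of at least 10. With total counts as the scale the split at 120 min was 9 higher and 11 lower, and with total counts less Rn45s 10 higher and 16 lower, so neither direction predominated under all scales.

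Of the 25 partners and regulators of Nrf2, 5 (20%) were higher and 4 (16%) lower at 120 min, beside 7.63% and 6.70% of all genes. Maff, a small Maf protein that pairs with Nrf2, went from 288 to 5876 normalized counts at 60 min and 4125 at 120 min, which was 14.3-fold (interval 12.8 to 16). The coactivator gene Crebbp was 2.21-fold higher. Osgin1, a stress-response gene, reached its maximum of 1049 at 45 min and was at 85.1 at 120 min against 489 at 0 min (ratio 0.174), and Amer1, whose product binds Keap1, was at 0.486 of its 0 min level.

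Of 42 genes of glutathione synthesis and use, 5 (11.9%) were higher and 0 lower by the exact test at 120 min, beside 7.63% and 6.70% of all genes. Of the 42, 26 had a mean of at least 10 normalized counts and 6 had no read in any library. Slc7a11, the cystine importer that supplies cysteine to the step catalysed by Gclc and Gclm, went from 4034 to 26358 normalized counts (6.53-fold, interval 6.34 to 6.74), although neither ligase subunit was called. The glutaredoxin gene Glrx was 4.78-fold, Chac2 1.66-fold and the glutathione conjugate exporter Abcc1 1.63-fold higher.

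In the thioredoxin and peroxiredoxin list of 22 genes, 2 (9.09%) were higher and 3 (13.6%) lower at 120 min, beside 7.63% and 6.70% of all genes, so the share of higher calls was near that of the table. Txnip, which binds and inhibits thioredoxin, went from 31539 normalized counts to 4959 at 60 min and 6899 at 120 min (ratio 0.219). The sestrin gene Sesn1 was at 0.137 of its 0 min level and the methionine sulfoxide reductase gene Msrb2 at 0.334, while Sod2, the mitochondrial superoxide dismutase, was 2.5-fold higher.

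In the 3 remaining lists 2 genes at most were called in a direction at 120 min, beside 7.63% of all genes higher and 6.70% lower. Of 15 genes of haem and iron handling 2 were higher and 1 lower: the iron importer Slc11a2 (4.56-fold) and the iron regulatory protein gene Ireb2 (2.22-fold) were higher and the iron exporter Slc40a1 (0.521) lower, in cells where Hmox1, which frees iron from haem, was not called. Of 23 genes of NADPH supply and quinone or carbonyl reduction, the list nearest to Nqo1, 1 was higher (Por, cytochrome P450 reductase, 2.38-fold) and 1 lower (Cbr3, a carbonyl reductase, 0.589). Of 15 partners of Sqstm1 in selective autophagy 2 (13.3%) were higher at 120 min, Tollip (1.61-fold) and Optn. Optn was 3.27-fold higher (interval 1.64 to 7.1), from 11 reads at 0 min and with a mean of 16.6 normalized counts. Wdfy3 had an early maximum at 45 min. Counts drifted with transcript length, with a median log2 deviation of the longest genes of -0.24 at 0 min and 0.16 at 45 min. The Wdfy3 maximum was not recomputed with that drift removed. At 120 min the 5.55-fold rise of Sqstm1 was larger than those of Tollip and Wdfy3 (1.47-fold) and lay inside the interval of Optn.

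**Figure D4:**
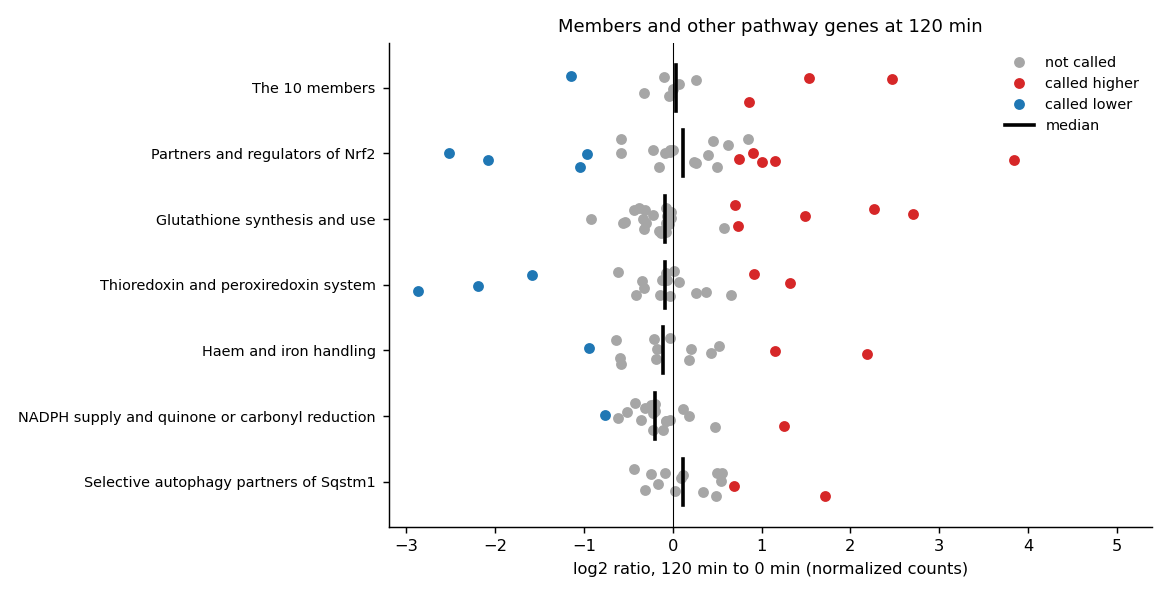
log2 ratio of 120 min to 0 min (horizontal axis) for the 10 members and for the genes of 6 pathway lists with a mean of at least 10 normalized counts, 1 point per gene, coloured by call, with the median as a bar and points spread vertically for legibility. The list medians lie between -0.20 and 0.12, and single genes reach from -2.87 (Sesn1) to 3.84 (Maff).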

How the data were processed

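Per the labels and methods, RNA of 8 cultures was depleted of ribosomal RNA and sequenced as directional libraries. The authors mapped 58-base reads with Bowtie (2 mismatches allowed, version not given in the sources used here) to RefSeq transcripts of mm10 and deposited whole-number read counts per gene symbol, discarding reads that matched several genes. The submitters' processing notes name CASAVA 1.8.2 and DESeq 1.10.1.

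From the deposited counts, median-of-ratios size factors (0.71 to 1.23) and a blind dispersion (0.0287 + 0.853 divided by the mean) were fitted over all genes. Each library pair was compared by an exact negative binomial test, reimplemented in Python 3.11.15 after the DESeq procedure and tested on simulated data. Counting intervals are exact conditional binomial for ratios and exact Poisson for rpkm, and reads without molecular identifiers are not independent molecules. Maxima and minima were called in time order by the rule in the study's methods. Counts also drifted with transcript length between libraries (median log2 deviation of the longest genes -0.24 at 0 min and 0.09 at 120 min), so ratios were also computed with that trend removed. Library totals of 100250892 to 159077286 reads gave the widest interval for Nqo1. Lengths came from GENCODE transcripts of GRCm38 matched by RefSeq accession, and promoters from RefSeq for 8 of the 10 members.

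All 10 members are named, and of the lists at most 4 genes each, called at 120 min or with a called extremum, by largest log2 ratio with a mean of at least 100. Optn, below that mean, is named as well. Likeness used log2(normalized count + 1). The members and lists were chosen with earlier results of these data known. Keap1, a member, was left out of the autophagy list. Alternatives were other scales (edgeR 4.0.16 TMM, totals with and without Rn45s), filters, adjustment, log2 limit, dispersion trends (DESeq2 1.42.0, edgeR), a trend with transcript length, and libraries left out.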

Additional observations from a re-analysis of the deposited data

How the results depend on the processing

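No paired analysis was possible because each time point is 1 library and no replicate numbers exist. Over 18 alternative settings the class of course was kept in all 18 by each member except Hmox1 (15) and Txnrd1 (13). The classes here were no called maximum or minimum, or a first maximum or a first minimum at or after 60 min. The class leaves out the exact times, which could shift, as where the library with the maximum or minimum was left out. The cause of the changes of class was not tested. At 120 min the log2 ratio lay between 2.27 and 2.54 for Sqstm1, 1.33 and 1.54 for Srxn1, 0.66 and 0.88 for Txnrd1, and -1.36 and -1.14 for Keap1. The number of members called higher at 60 min, 2, became 4 where the counting interval alone made the call, by adding Hmox1 and Txnrd1. It became 3, by adding Txnrd1, when only genes with a mean count of at least 10 entered the fit and when the 120 min library was left out. The 17 other pathway genes higher at 120 min became 9 with total counts, 10 with total counts less Rn45s, 8 with Benjamini-Hochberg adjustment and 11 with a log2 limit of 1. The 9 lower became 16 with total counts less Rn45s, 4 with adjustment and 5 with edgeR's dispersion trend. With TMM factors 14 were higher and 9 lower, and with the counting interval alone 21 were higher and 13 lower. Higher calls thus outnumbered lower ones among these genes with size factors and TMM factors but not with either total-count scale, whereas no called member changed direction. Removing the trend with transcript length moved the members' 120 min log2 ratios by little, for Gclm from -0.10 to -0.19, and changed no member's call there. Using the longest transcript as the length moved the rpkm of 8 members at 0 min by more than the counting interval, for Txnrd1 to 118. With 1 library per time point no setting measures the spread between cultures, and a count interval covers reads alone.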
